A study of Homo sapiens with 3 samples.

Results

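The genes described are 28 protein-coding genes of the small (40S) subunit of the cytoplasmic ribosome, taken by symbol from the 58302 genes of the deposited table. The rule uses names and no measured value, though it was set with earlier results of these data known. They are RPS2, RPS3, RPS3A, RPS4X, RPS6, RPS7, RPS9, RPS10, RPS12, RPS13, RPS14, RPS15, RPS15A, RPS16, RPS18, RPS19, RPS20, RPS21, RPS23, RPS24, RPS25, RPS26, RPS27, RPS27A, RPS28, RPS29, RPSA and FAU. RNA was sequenced from HCT116, an established human colorectal cancer line, in 3 libraries. A first library came from cells given DUOX2 siRNA 1 and a second from cells given DUOX2 siRNA 2, a small interfering RNA of another sequence, and a single library came from cells given a control siRNA. DUOX2 is an NADPH oxidase that makes hydrogen peroxide, and the comparison asks how cells low in DUOX2 differ from control cells. No other allele or agent is given in the labels, and no time after transfection.

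The small subunit reads the mRNA: it holds the 18S rRNA and about as many proteins as there are genes here, and the proteins lie on its head, its body or its platform. One copy of each protein goes into each subunit, and the mRNAs share a run of pyrimidines at their 5' end, the TOP motif, through which mTOR and LARP1 control their translation. These short, abundant mRNAs have also been copied back into the genome many times as processed pseudogenes, intron-free copies whose letters can be identical to the coding sequence of the parent gene. A short read from such a stretch fits the gene and its copies equally well.

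The siRNAs are shown because they define the groups. Their sense strands, with the 19-base core in capitals and the overhang in lower case, were:
siRNA 1: GGAGGACAACAUAGUGGUUtt
siRNA 2: CCAUGAUGCGAUCCUUCAUtt
Both cores were found in a DUOX2 transcript, and the closest stretch in any transcript of the 28 genes differed at 5 of 19 bases for each siRNA. DUOX2 had 2 counts with siRNA 1 and 0 counts with siRNA 2, against 2 counts in the control library. A count of 3, the limit that a count of 0 allows, was 0.157 CPM (the count as scaled by the total of its library) with siRNA 1, 0.159 CPM with siRNA 2 and 0.171 CPM in the control, so a lower DUOX2 level was not detectable at this depth. The libraries held 19130768 counts with siRNA 1 and 18832672 with siRNA 2, against 17589502 in the control. Of 11 epithelial and colorectal markers, 8 had at least 10 counts in every library. Of 9 retina markers, examined because the extraction text in the labels speaks of retinas, 6 were at 0 in all libraries.

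Starts of transcription are shown because they carry the motif that the family shares. Each line gives 30 bases around a start listed by RefSeq (GRCh38.p14), 15 on each side, with the longest run of C and T in capitals, for those with a listed start among the 5 genes lowest and the 5 highest by mean fold change. RPS27A has 3 listed starts, with runs of 5, 11 and 12 bases, and the window with the longest is shown.
RPS27: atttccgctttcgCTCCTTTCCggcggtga
FAU: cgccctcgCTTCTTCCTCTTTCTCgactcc
RPSA: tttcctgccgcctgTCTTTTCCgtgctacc
RPS9: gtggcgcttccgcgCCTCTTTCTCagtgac
RPS27A: tgcgcggcgTTCTTCCTTTTCgatccgcca
RPS6: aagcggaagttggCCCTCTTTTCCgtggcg
RPS23: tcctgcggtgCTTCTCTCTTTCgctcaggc
RPS13: ttccactctcgCTCTCCTTTCgttgcctga
RPS25: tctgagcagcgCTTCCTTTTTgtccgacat
The windows are chr1:153990747-153990776 on the plus strand for RPS27, chr11:65122120-65122149 on the minus strand for FAU, chr3:39406705-39406734 (plus) for RPSA and chr19:54200843-54200872 (plus) for RPS9. The others are chr2:55232673-55232702 (plus) for RPS27A, chr9:19380222-19380251 (minus) for RPS6, chr5:82278340-82278369 (minus) for RPS23, chr11:17077653-17077682 (minus) for RPS13 and chr11:119018329-119018358 (minus) for RPS25. A start is listed for 25 of the 28 genes, and not for RPS2, RPS15A and RPS20. A run of at least 8 C or T lay in a window of 21 of these 25 genes (84.0%), against 16.5% of the 27305 genes with a start listed by RefSeq. For genes with several starts the longest run counts. The same run on the opposite strand, read as A or G, lay in 0 of the members' windows and in 11.2% of all windows. Genes at either end of the fold-change order had such a run, from 8 bases in RPSA to 16 in FAU.

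Coding sequences are shown because they give how far a gene can be told from its copies. Each line gives coding bases 1 to 90, and capitals mark bases that differ from the parent gene.
RPS27: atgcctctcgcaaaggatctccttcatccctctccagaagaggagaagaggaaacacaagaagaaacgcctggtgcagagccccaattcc
AC005912.1: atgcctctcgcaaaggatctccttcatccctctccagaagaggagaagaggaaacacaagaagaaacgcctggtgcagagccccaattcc
AC099560.2: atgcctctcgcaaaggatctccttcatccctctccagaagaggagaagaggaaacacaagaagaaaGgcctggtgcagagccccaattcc
RPS27L: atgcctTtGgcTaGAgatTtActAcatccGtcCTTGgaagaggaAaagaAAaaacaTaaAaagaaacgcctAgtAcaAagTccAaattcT
RPSA: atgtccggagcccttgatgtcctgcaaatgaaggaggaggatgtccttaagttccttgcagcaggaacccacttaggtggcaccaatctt
RPSAP58: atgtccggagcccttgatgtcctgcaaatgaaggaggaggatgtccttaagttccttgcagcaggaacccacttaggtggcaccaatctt
RPS28: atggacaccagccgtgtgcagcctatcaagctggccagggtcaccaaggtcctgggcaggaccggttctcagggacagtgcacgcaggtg
RPS28P7: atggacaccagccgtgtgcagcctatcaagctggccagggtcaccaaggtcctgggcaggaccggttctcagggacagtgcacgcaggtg
RPS27 (chromosome 1) and the pseudogene AC005912.1 (chromosome 12) had 0 differing bases in this stretch, and AC099560.2 (chromosome 3) had 1. RPS27L (chromosome 15), an expressed paralogue with its own introns, differed from RPS27 at 24 of the 90 bases. RPSA (chromosome 3) did not differ from RPSAP58 (chromosome 19) in this stretch, nor RPS28 (chromosome 19) from RPS28P7 (chromosome 11).

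The 28 genes together took 0.537% of all counts with siRNA 1 (exact binomial 95% interval 0.534 to 0.540) and 0.593% with siRNA 2 (0.589 to 0.596), against 0.675% in the control (0.672 to 0.679). These intervals cover counting error only. Counts were not spread evenly: RPS4X alone had 26487 counts with siRNA 1 and 25799 with siRNA 2, against 27614 in the control, while RPS28 had 27 and 34, against 32. All 28 genes passed the filter on low counts. Mitochondrially encoded genes took 12.1% of counts with siRNA 1 and 8.83% with siRNA 2, against 8.58% in the control. Outside these genes the members' share was 0.611% with siRNA 1 and 0.650% with siRNA 2, against 0.739% in the control.

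**Figure D1:**
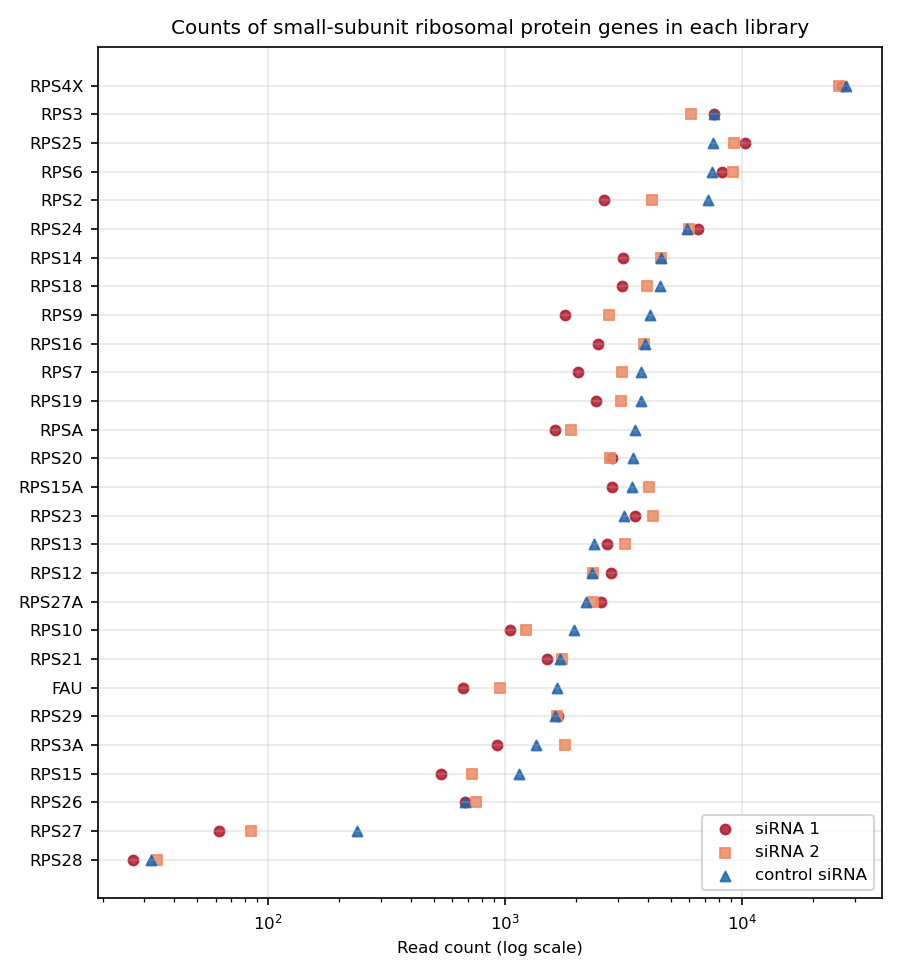
Read counts (log scale) of the 28 small-subunit genes in the libraries with siRNA 1, siRNA 2 and control siRNA, 1 point per library. RPS4X lies highest, between 25799 and 27614 counts, RPS28 lowest, between 27 and 34, and RPS27, RPS2, FAU and RPSA have both siRNA points left of the control point.

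No member passed the test of siRNA against control. edgeR's quasi-likelihood test with Benjamini-Hochberg adjustment called 0 of 28 members at an adjusted p of 0.05, against 10 of the 17263 genes tested (0.0579%, with 0.0405% lower and 0.0174% higher). At an unadjusted p under 0.05 it gave 7 members lower, against 14.5% of all genes, and 0 members higher, against 11.5%. DESeq2 called 3 members lower, RPS2, RPSA and FAU, against 1.76% of all genes, and 0 higher, against 1.52%. The labels do not say that the cultures were separate, and the control has 1 library, so the only replicate spread is that of one siRNA library around the other. edgeR combined it with the spread over all genes, at 1 residual and 4.66 prior degrees of freedom. Its p-values and SEs thus do not rest on the spread of the single gene alone.

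By sign alone, 15 of 28 members were lower with both siRNAs, against 41.6% of all genes, and 6 were higher with both, against 41.9%. The median log2 fold change of the members was −0.27 with siRNA 1 and −0.05 with siRNA 2, beside 0.02 and −0.01 over all genes tested. Both comparisons share the control library. Taken singly, 18 members were lower with siRNA 1 (49.1% of all genes) and 19 with siRNA 2 (50.5%). The members were lower with siRNA 1 than with siRNA 2 in 20 of 28 cases, against 50.5% of all genes, and at least 2-fold lower than control in 6 cases with siRNA 1 (12.4% of all genes) and in 1 with siRNA 2 (7.84%). Across all genes the fold change followed GC content, with Spearman's rho of −0.68 for siRNA 1 and −0.64 for siRNA 2 over 17209 genes. Over the 28 members rho was −0.31 and −0.25, given as a description of genes that share their libraries. With the GC trend of each library removed, 21 members were lower with both siRNAs (43.1% of all genes) and 4 higher (30.6%), at a median of −0.36. Over all genes the median for the mean of both siRNAs was −0.0019 without this removal and −0.06 with it. In that fit 2 members were at least 2-fold lower with both siRNAs (1.67% of all genes) and 6 with siRNA 1 (5.22%).

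**Figure D2:**
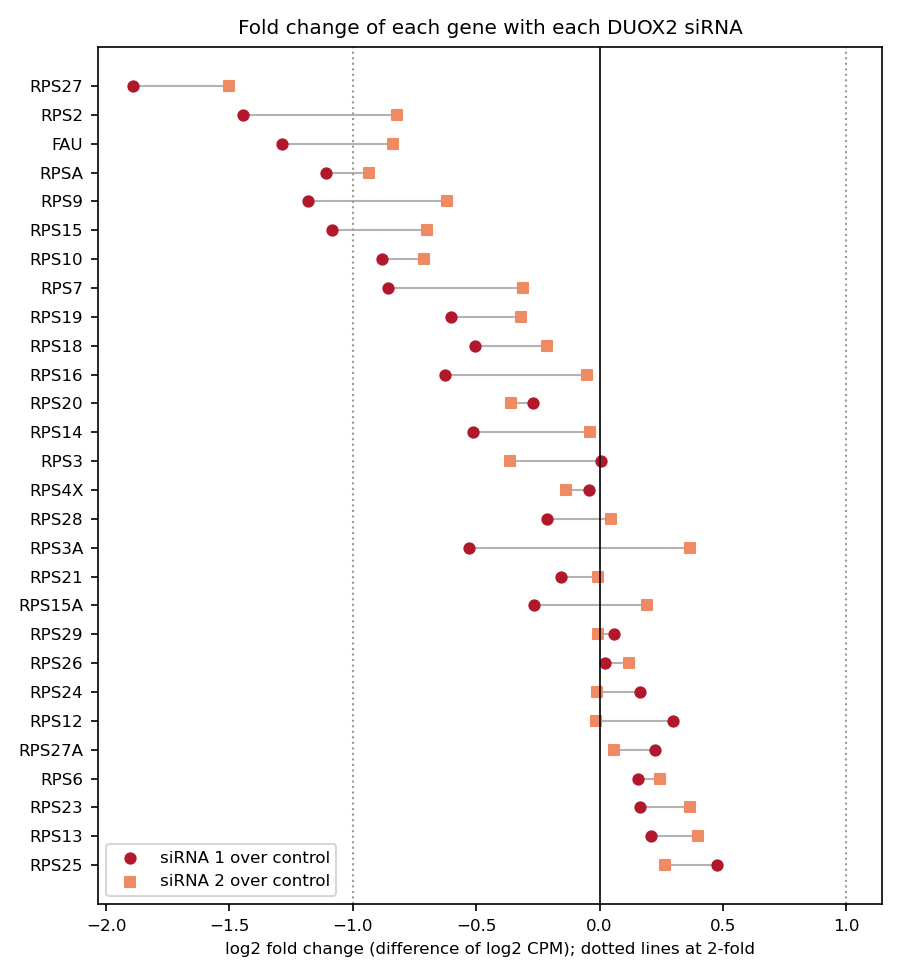
Log2 fold change of each of the 28 genes for siRNA 1 over control and siRNA 2 over control, as differences of log2 CPM; grey bars join the 2 siRNAs and dotted lines mark 2-fold. RPS27 lies beyond 2-fold lower with both siRNAs and no gene reaches 2-fold higher.

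The lowest member was RPS27 (chr1:153990759-153992150, GRCh38), a zinc-finger protein of the platform. It had 62 counts with siRNA 1 and 85 with siRNA 2, against 238 in the control, log2 fold changes of −1.89 and −1.50. Without a GC offset it was the 1 member at least 2-fold lower with both siRNAs, which held for 5.05% of all genes. edgeR gave −1.71 ± 0.32 (SE) with an adjusted p of 0.112. With the GC trend removed 2 members were at least 2-fold lower with both (1.67% of all genes), and RPS27 had −2.23 and −1.76. All of its coding 50-base windows were also found in another gene. The gene row took a small part of the counts of the gene and its 25 copies. This part was 3.19% with siRNA 1 and 3.60% with siRNA 2, against 12.1% in the control. The copies had 1879 counts with siRNA 1 and 2276 with siRNA 2, against 1721 in the control. Most of those lay in 3 pseudogenes with clone names: AC005912.1 had 509 and 735 counts with the siRNAs, against 578, AC099560.2 had 828 and 952, against 566, and AC099336.2 had 277 and 407, against 454. With all copies added the log2 fold changes were 0.01 and 0.23, so the direction turned. By library total alone, the sum had 403 CPM per coding kilobase with siRNA 1 and 497 with siRNA 2, against 442 in the control. The turn with siRNA 1 thus rests on the scaling. The paralogue RPS27L had 268 counts with siRNA 1 and 343 with siRNA 2, against 245 in the control, log2 fold changes of 0.15 and 0.44 with an adjusted p of 0.486 (edgeR).

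RPSA, a platform protein also known as the laminin receptor, showed the same turn. Its gene row (chr3:39406689-39412542) had 1621 counts with siRNA 1 and 1905 with siRNA 2, against 3548 in the control, log2 fold changes of −1.11 and −0.93 (edgeR −1.02 ± 0.19, SE, adjusted p 0.112). With the GC trend removed the gene row had −1.49 and −1.22, at least 2-fold lower with both siRNAs. Its 75 copies had 17701 and 20119 counts, against 14494. RPSAP58, identical in the stretch shown, had 6005 and 7185 counts with the siRNAs, against 7007. RPSAP15 had 5295 and 6117, against 3479, and RPSAP54 had 3556 and 3708, against 938. The last 2 copies had more counts with both siRNAs than in the control. Gene and copies together gave log2 fold changes of 0.12 and 0.25. By library total alone, they had 1141 CPM per coding kilobase with siRNA 1 and 1321 with siRNA 2, against 1159 in the control. The turn of RPSA with siRNA 1 thus rests on the scaling too.

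Other platform proteins lay closer to the control. RPS3A, by the mRNA exit, had 923 counts with siRNA 1 and 1784 with siRNA 2, against 1349 in the control, so the siRNAs lay on opposite sides (−0.53 and 0.36 on the log2 scale). Its copies had 9883 and 9817 counts, against 8186, and with them both values were positive, 0.20 and 0.24. RPS14, whose loss underlies the 5q- syndrome, had 3146 and 4541 counts with the siRNAs, against 4544, with −0.51 and −0.04. RPS26, which contacts mRNA upstream of the start codon, had 676 and 754, against 675, with 0.02 and 0.12. AC004057.1 (chromosome 4), annotated as a transcribed processed pseudogene, holds 100% of the coding windows of RPS26. It had 3692 and 4406 counts, against 4923, and RPS26 with all copies gave 0.32 and 0.16. RPS21, next to RPSA on the platform, had 1506 and 1739, against 1701, with −0.16 and −0.01, and only 1.50% of its windows occurred elsewhere. The 6 platform members had a median of −0.52 with siRNA 1 and −0.02 with siRNA 2, and of 0.06 and 0.20 with all copies added.

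Among body proteins RPS2, at the entrance of the mRNA channel, was lowest. It had 2607 counts with siRNA 1 and 4182 with siRNA 2, against 7195 in the control, log2 fold changes of −1.45 and −0.82 (edgeR −1.10 ± 0.28, SE, adjusted p 0.126, and DESeq2 adjusted p 0.0302). Both siRNA libraries lay below the control, and siRNA 1 lay lower. Its main copies did so too: RPS2P5 had 7746 and 8964 counts with the siRNAs, against 9673, and RPS2P46 had 2059 and 2766, against 4190. With all copies the values were −0.70 and −0.40. With the GC trend removed the mean of both siRNAs was −0.73 for RPS2, and RPS7 (−0.94) and FAU (−0.90) lay below it. FAU, made as a fusion to a ubiquitin-like protein, had 667 and 949 counts, against 1651, with −1.29 and −0.84 (edgeR −1.05 ± 0.26, SE, adjusted p 0.125). Its copy FAUP1 had 471 and 431 counts with the siRNAs, against 113, and the sum gave −0.61 and −0.39. FAU also shares 398 exon bases with SYVN1 on the same strand, which had 643 and 795 counts, against 1100, and 282 with MRPL49 on the other strand, at 475 and 789, against 902. The part of these neighbours in the counts of FAU was not tested.

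RPS9, which binds 18S rRNA early, moved least of the 5 lowest genes when copies were added. It had 1785 counts with siRNA 1 and 2744 with siRNA 2, against 4103 in the control, log2 fold changes of −1.18 and −0.62 (edgeR −0.87 ± 0.27, SE, adjusted p 0.142). Between 85.3% and 87.8% of the counts of the gene and its copies lay on the gene row in every library, and adding the copies gave −1.22 and −0.61. Its values were −0.77 and −0.31 after removal of the GC trend. RPS7, a Diamond-Blackfan anaemia gene, had 2040 and 3104 counts, against 3751, with −0.86 and −0.31, and −0.35 and −0.02 with its copies. RPS4X, the most highly expressed member, differed little between libraries without a GC offset, at −0.04 and −0.14. With the GC trend removed it had −0.43 with siRNA 1 and −0.43 with siRNA 2. RPS24, another Diamond-Blackfan anaemia gene, had 6502 and 6000 counts, against 5884, with 0.16 and −0.01. RPS15A, on the central domain of 18S rRNA, had 2826 and 4042, against 3443, with −0.27 and 0.19.

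The remaining body proteins had positive log2 values with both siRNAs. RPS13, which helps form a bridge to the large subunit, had 2699 and 3207 counts with the siRNAs, against 2368, log2 fold changes of 0.21 and 0.40 (edgeR 0.31 ± 0.20, SE, adjusted p 0.358). It shares 58 exon bases with PIK3C2A, which had 7061 and 6812 counts, against 4631. RPS23, at the decoding centre, had 3529 and 4229, against 3192, with 0.16 and 0.37 (edgeR 0.27 ± 0.20, SE, adjusted p 0.407). RPS6, the target of the S6 kinases, had 8237 and 9133, against 7498, with 0.15 and 0.25 (edgeR 0.20 ± 0.18, SE, adjusted p 0.498). With the GC trend removed the mean of both siRNAs was −0.05 for RPS23 and −0.19 for RPS6, so their direction rests on that choice. The 10 body members had medians of −0.15 with siRNA 1 and −0.07 with siRNA 2.

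On the head, RPS15, which reaches towards the decoding site, was lowest. It had 535 counts with siRNA 1 and 727 with siRNA 2, against 1150 in the control, with −1.08 and −0.70, and −0.88 and −0.44 with its copies. Its mean over both siRNAs was −0.26 after removal of the GC trend, and RPS10 was the lowest of the head at −1.01. RPS19, the gene most often mutated in Diamond-Blackfan anaemia, had 2427 and 3074, against 3733, with −0.60 and −0.32. Only 2.07% of its windows occurred in another gene, and its values with copies were −0.59 and −0.31, but −0.16 and 0.02 with the GC trend removed. RPS16, whose tail touches the P-site tRNA, had 2481 and 3845, against 3883, with −0.63 and −0.05. Its copy AC011447.1 had 1111 and 1118 counts with the siRNAs, against 493, and RPS16 with all copies gave −0.26 and 0.15. RPS18, which contacts the large subunit, had 3129 and 3989, against 4505, with −0.51 and −0.21. RPS20, ubiquitinated on collided ribosomes, had 2839 and 2772, against 3466, with −0.27 and −0.36. RPS3, at the entrance of the mRNA channel, had 7593 and 6107, against 7655, with 0.01 and −0.36.

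RPS10, the head protein that ZNF598 ubiquitinates on collided ribosomes, shares its locus with a gene that passed the test. RPS10 had 1045 counts with siRNA 1 and 1225 with siRNA 2, against 1955 in the control, with −0.88 and −0.71 (edgeR adjusted p 0.126). RPS10-NUDT3, an annotated readthrough gene on the same strand, shares 929 exon bases with it, 39.4% of the exon bases of RPS10. It had 572 counts with siRNA 1 and 488 with siRNA 2, against 6 in the control, and rose by 6.43 ± 0.41 on the log2 scale (edgeR, SE, adjusted p 0.0174). Its call rests on the settings, since no gene passed with another filter, with limma or with a GC offset. Genes did pass with total count scaling (9) and with DESeq2 (567). The values of RPS10-NUDT3 in those fits are not given here. The sum of both genes was 1617 and 1713 counts, against 1961, or −0.26 and −0.23. Adding all 29 copies gave 4422 and 4772 counts, against 4778, or −0.09 and −0.04. The part of the overlap in the counts of RPS10 was not tested. ZNF598 itself had 271 and 375 counts with the siRNAs, against 650, with −1.24 and −0.83 (edgeR adjusted p 0.126), or −0.14 and 0.00 with the GC trend removed.

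Of the other head proteins, RPS25, needed by several viral internal ribosome entry sites, had the highest mean fold change of the members without a GC offset. With one, RPS28 (0.54) and RPS13 (0.404) lay above RPS25 (0.398). RPS25 had 10340 counts with siRNA 1 and 9306 with siRNA 2, against 7533 in the control, log2 fold changes of 0.48 and 0.27 (edgeR 0.38 ± 0.20, SE, adjusted p 0.272). It shares 260 exon bases with TRAPPC4 on the opposite strand, which had 386 and 352 counts, against 503. RPS27A, made as a fusion to ubiquitin, had 2537 and 2351, against 2199, with 0.22 and 0.06 (edgeR 0.14 ± 0.20, SE, adjusted p 0.662), and a mean of −0.22 with the GC trend removed. RPS12, on the beak, had 2814 and 2363, against 2322, with 0.30 and −0.01. RPS29, a zinc-finger protein, had 1673 and 1664, against 1628, with 0.06 and −0.01. RPS28, by the mRNA exit, had so few counts that its values of −0.21 and 0.05 rest on 27 and 34 counts, against 32. Its copy RPS28P7 had 1069 and 1199 counts with the siRNAs, against 1971, and gene and copies together gave −0.82 and −0.71. The 12 head members had medians of −0.24 with siRNA 1 and −0.13 with siRNA 2. The means of both siRNAs ranged between −0.89 and 0.37 on the head, −1.13 and 0.30 on the body and −1.70 and 0.07 on the platform, so the regions overlapped.

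The siRNAs differed from each other by over 0.5 on the log2 scale in RPS2, RPS9, RPS7, RPS16 and RPS3A, each lower with siRNA 1. This holds for 11.2% of all genes in that direction. With 1 library per siRNA these differences have no replicate check.

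Every member had at least some coding windows that another gene also holds, from 1.50% in RPS21 to 100% in RPS3A, RPS10, RPS26, RPS27 and RPS28. Copies were taken as pseudogenes named after the member (394) or sharing an exact 50-base window with its coding sequence (a further 125). The more of the coding sequence was shared, the smaller the part of the counts on the gene row: Spearman's rho across the 28 members was −0.84 in the control, a description of genes of 1 library. The measures are linked by construction, since shared windows also define part of the copies. Windows in genes that are not copies, such as RPS10-NUDT3, count as shared too. In 24 of 28 members the gene row held a smaller part of the counts with both siRNAs than in the control. The exceptions were RPS28 and RPS29, higher with both siRNAs, and RPS3A and RPS9, which were mixed. The median part on the gene row was 68.0% with siRNA 1 and 69.3% with siRNA 2, against 79.4% in the control. These parts were not computed for genes outside the members.

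**Figure D3:**
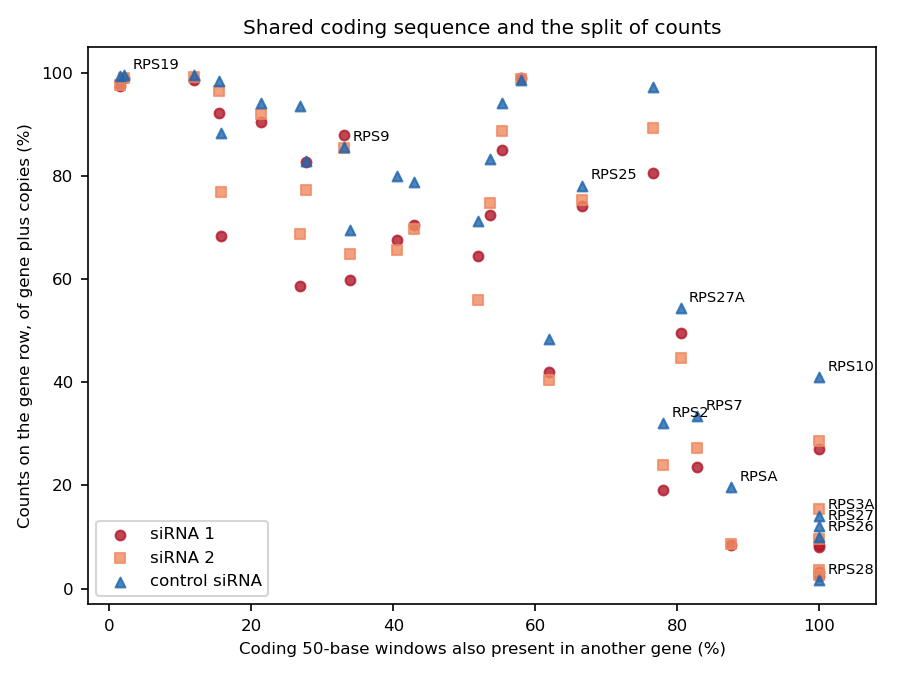
Share of coding 50-base windows of each gene that also occur in another gene (x axis, %) against the share of the counts of gene plus copies that lies on the gene row (y axis, %), for the libraries with siRNA 1, siRNA 2 and control siRNA. Genes with 80.4% or more of shared windows have at most 54.3% of the counts on the gene row.

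Counts on the copies had, in sum, the opposite sign. Scaled by library, the copies were higher with both siRNAs for 22 members and lower with both for 5. Of all genes tested, taken singly, 41.9% were higher with both and 41.6% lower. Other pseudogenes were not counted in this way. Summed over the members, the gene rows gave log2 fold changes of −0.19 with siRNA 1 and −0.13 with siRNA 2, the copies 0.19 and 0.24, and both together −0.03 and 0.02, with TMM scaling. As plain shares of the library total the gene rows gave −0.33 and −0.19, the copies 0.05 and 0.17, and both together −0.17 and −0.04, so the size of the total rests on the scaling, as does its sign with siRNA 2. With all copies added, 11 members were lower with both siRNAs (41.7% of all genes) and 12 higher (41.7%), and the medians were 0.01 and 0.01. edgeR called 0 members in that fit, against 0.0583% of all genes. How the counting divided reads that fit several places is not stated. Counts on a stretch that a copy shares with its parent gene thus cannot be told apart from reads of that gene. Copies differed in this: RPS4XP3 held 4.9% of the windows of RPS4X, and RPS28P7 100% of those of RPS28. The source of counts on the other stretches of a copy was not tested.

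**Figure D4:**
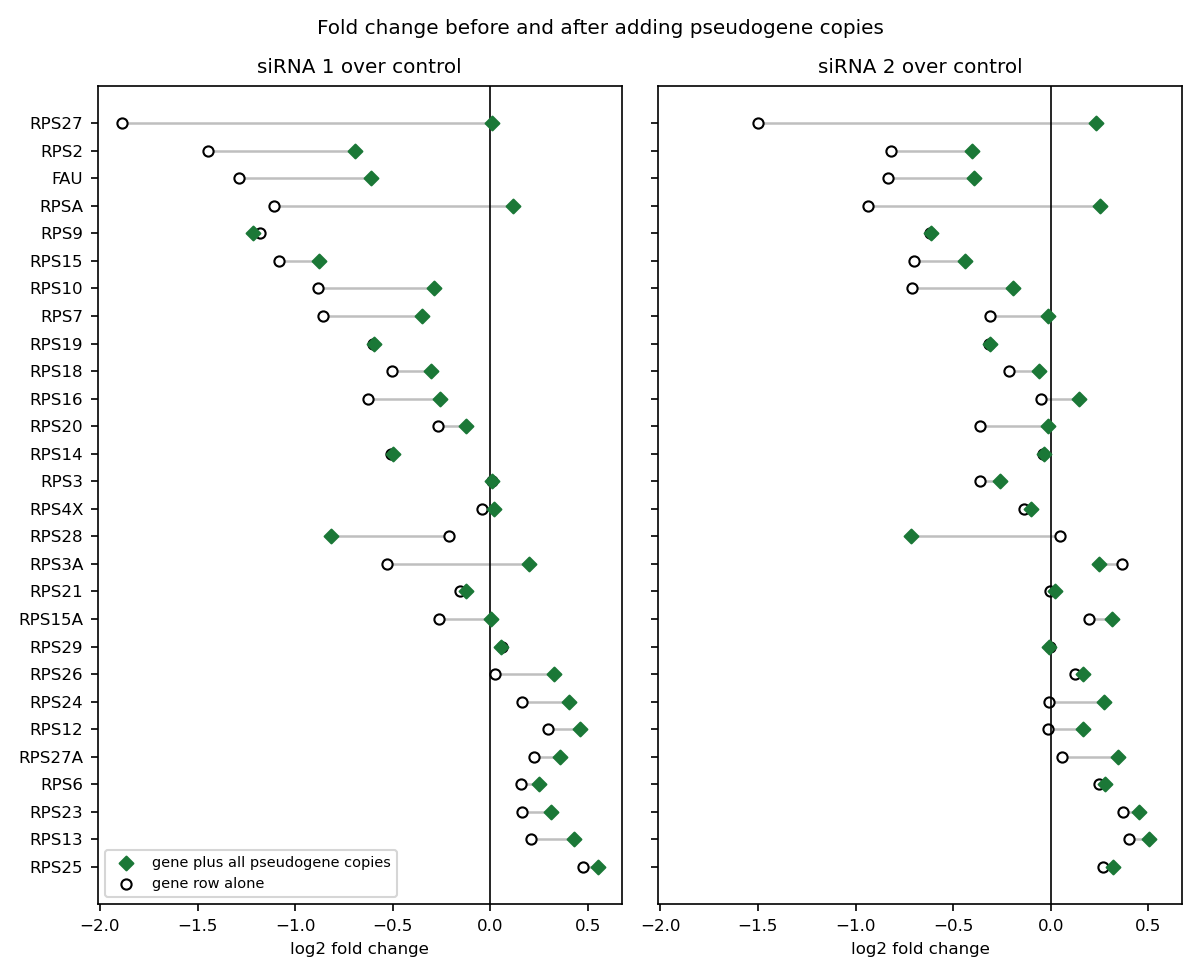
Log2 fold change of each of the 28 genes with siRNA 1 over control (left) and siRNA 2 over control (right); open circles show the gene row alone and diamonds the gene plus all pseudogene copies. With TMM scaling RPS27 and RPSA cross 0 with both siRNAs, RPS28 moves down, and RPS9, RPS14 and RPS19 stay near their place.

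The members can also be set apart by how much of their sequence is shared, with cut-offs chosen after the shares were seen. The 10 members with under 35% of windows elsewhere (RPS3, RPS4X, RPS6, RPS9, RPS13, RPS14, RPS16, RPS19, RPS21 and FAU) had medians of −0.33 with siRNA 1 and −0.09 with siRNA 2, with 7 lower and 2 higher with both siRNAs. The 8 with 80% or more (RPS3A, RPS7, RPS10, RPS26, RPS27, RPS27A, RPS28 and RPSA) had medians of −0.69 and −0.13, with 4 lower and 2 higher. With all copies added these 8 had medians of 0.06 and 0.20, and the 10 had −0.19 and −0.07.

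Levels between genes are given per length. By the deposited FPKM, RPS4X was highest, at 329 with siRNA 1 and 325 with siRNA 2, against 373 in the control. In the control RPS12 and RPS6 came next. RPS12 had 158 and 135 with the siRNAs, against 142, and RPS6 had 113 and 127, against 112. With siRNA 1, RPS25 (131) lay above RPS6. The lowest in the control were RPS28 with 0.357 and 0.456, against 0.460, RPS29 with 7.78 and 7.86, against 8.24, and RPS27 with 2.18 and 3.03, against 9.09. RPS15, at 5.31 and 7.33 with the siRNAs, against 12.4, lay below RPS29 with either siRNA, and FAU did so with siRNA 1, at 6.77. The gene length behind these values equals the sum of all distinct annotated exon records, within 1 base, for 92.1% of 13047 genes with at least 50 counts. Overlapping exons of several transcripts are then counted repeatedly, and the length was between 2.35 times (RPS12) and 66.9 times (RPS29) the coding length.

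Per kilobase of coding sequence, RPS4X stayed first with 1755 CPM with siRNA 1 and 1736 with siRNA 2, against 1990 in the control. RPS25 was next, at 1441 and 1318, against 1142. RPS29 was at rank 9 in the control, and at rank 27 by FPKM, at 521 and 526 with the siRNAs, against 551. RPS12 was at rank 18, and at rank 2 by FPKM, at 371 and 317, against 333. Per kilobase of the exon union, which counts each exon base once, RPS29 was at rank 27 and RPS12 at rank 3 in the control. Their change of rank thus came with the coding length and not with the repeated counting of exons. In the control, RPS3, RPS6, RPS14, RPS18, RPS20 and RPS29 lay between 551 and 597, and with 1 library no order among them can be given. The orders by FPKM and per coding kilobase had a Spearman's rho of 0.64 across the 28 members in the control.

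**Figure D5:**
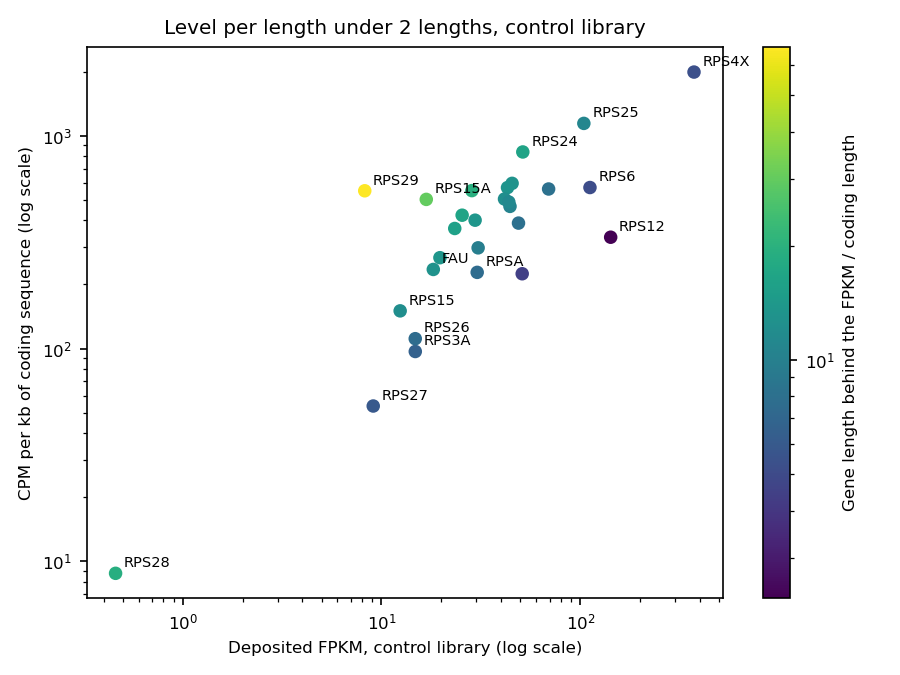
Deposited FPKM (x axis, log scale) against CPM per kilobase of coding sequence (y axis, log scale) for the 28 genes in the control library, coloured by the ratio of the gene length behind the FPKM to the coding length. RPS29 (ratio 66.9) lies far above, and RPS12 (ratio 2.35) below, the run of the other genes.

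Adding copies can only raise a level, and the span between the lowest and the highest member was narrower with them. Per coding kilobase the gene rows spanned 257-fold with siRNA 1 and 199-fold with siRNA 2, against 226-fold in the control, from RPS28 to RPS4X. With all copies added the span was 13.0-fold and 10.3-fold, against 8.41-fold. In the control 20 members lay within 2-fold of the median on the gene row, and 23 with copies. Members over 2-fold above the median went the other way, from 3 to 4 in the control and from 3 to 5 with each siRNA. RPS28 had 285 and 323 CPM per coding kilobase with its copies, against 553 in the control, beside 6.82 and 8.72, against 8.79, without them. RPS27 had 403 and 497 with its copies, against 442, beside 12.9 and 17.9, against 53.7, without them. FAU was the lowest member with copies in every library, at 149 and 184, against 251.

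The scaffold protein RACK1, which sits on the head of the small subunit and is not among the 28 genes, had 11556 counts with siRNA 1 and 12686 with siRNA 2, against 10968 in the control. Its log2 fold changes were 0.09 and 0.17 (edgeR adjusted p 0.655). The 47 large-subunit genes had 28 lower and 14 higher with both siRNAs and medians of −0.13 with siRNA 1 and −0.12 with siRNA 2, and none passed the test. The 29 small-subunit proteins of the mitochondrial ribosome had 11 lower and 14 higher, with medians of 0.23 and 0.09. With the GC trend removed the median over both siRNAs was −0.28 for the large subunit and −0.13 for the mitochondrial list, whose sign thus turned. In that fit the median of all genes was itself −0.06.

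Of 37 factors that build the 40S subunit, 0 passed the test in either direction, with 11 lower and 18 higher with both siRNAs and medians of 0.01 and 0.24. Ranks here are without a GC offset. The lowest by mean were NOC4L (260 counts with siRNA 1 and 453 with siRNA 2, against 592 in the control) and RRP9 (402 and 581, against 805). After removal of the GC trend NOC4L had −0.11 and 0.37, and RRP9 had −0.20 and 0.08. The highest were MPHOSPH10 (2717 and 1655, against 1203) and RIOK1 (995 and 1066, against 667), a kinase of late 40S maturation. Of 18 genes listed for an RPS6K symbol or as regulators of TOP mRNAs, 0 passed, with 7 lower and 9 higher. The symbol alone does not show that a kinase acts on RPS6. Their medians were 0.33 and 0.09, or −0.02 over both siRNAs with the GC trend removed. RPS6KA4 (392 and 590, against 1030) and EIF4EBP1 (633 and 720, against 1364), an mTOR-controlled repressor of cap-dependent translation, were lowest. With the GC trend removed RPS6KA4 had −0.32 and −0.05 and EIF4EBP1 had 0.01 and −0.13, and neither was lowest. RPS6KA6 (176 and 124, against 64) and CNBP (7567 and 5178, against 2776), a protein that binds TOP mRNAs, were highest. Of 18 factors of 40S quality control 0 passed, with 6 lower and 8 higher with both siRNAs.

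The spans of 7 members hold 14 annotated small nucleolar RNAs, which guide rRNA modification. Together they had 56 counts with siRNA 1 and 54 with siRNA 2, against 45 in the control, and none exceeded 13 counts in a library, so a difference was not detectable at this depth.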

How the data were processed

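Total RNA of 3 HCT116 libraries was sequenced after TruSeq library preparation, per the labels. The authors deposited raw read counts per gene and FPKM values. The submitters' processing notes name Bowtie 0.12.2, GRCh38 and mm8, without a role. Not given in the sources used here are the counting program, the use of strand and what became of reads with several matches. The deposited coordinates are on GRCh38: 97.6% of 58039 genes matched GENCODE 29, which supplied exons, coding sequences and GC content.

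The counts were tested with edgeR 4.0.16 in R 4.3.3 (TMM scaling, filterByExpr at 10 counts, the quasi-likelihood functions glmQLFit and glmQLFTest, Benjamini-Hochberg threshold 0.05), 2 siRNA libraries against 1 control with 1 residual degree of freedom. The procedure was tested on simulated data. The fold change of each siRNA was the log2 CPM of its library minus that of the control (prior count 2), with no replicate check. Alternatives used DESeq2 1.42.0, limma 3.58.1 on the deposited FPKM, other scalings and filters, a GC offset, copies added and each siRNA library left out. Coding windows, copies and levels were computed in Python 3.11.15 with pandas 2.3.3 and drawn with matplotlib 3.10.9. Copies by shared windows were added after the data were seen.

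The members are defined by symbol alone, but members and lists were chosen with earlier results of these data known. All members are given by value. Full statistics go to the 5 lowest and 5 highest by mean fold change, and added values to the 3 highest and 3 lowest by control FPKM, those whose direction turns with copies and those whose siRNAs differ by over 0.5. From the assembly and TOP lists the 2 highest and 2 lowest are named, with RACK1, RPS27L and some genes that overlap a member. The large-subunit and mitochondrial lists were made, and ZNF598 was named, after the data were seen. Some other genes under this rule are not reported here.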

Additional observations from a re-analysis of the deposited data

How the results depend on the processing

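The number of genes past the threshold, 10 with edgeR, was 567 with DESeq2 and 0 unfiltered, with a filter of 1 CPM in each library, with limma on log2(FPKM + 1) or log2(FPKM + 0.1) and with the GC trend as an offset. Members past the threshold, 0 in edgeR, were 3 with DESeq2 and 0 in the other fits. The median log2 fold change of the members, −0.13 for the mean of both siRNAs, was −0.36 with the GC offset (−0.06 over all genes), and between −0.28 and −0.04 when either siRNA library was left out. Total count scaling moved the median of all genes to −0.12 with siRNA 1 and −0.07 with siRNA 2, and gave 18 members lower and 4 higher with both. With named copies 14 members were lower with both siRNAs. The shares of all genes lower or higher with both siRNAs were not computed under total count scaling or with named copies. The log2 share of counts, −0.33 for siRNA 1 and −0.19 for siRNA 2, was −0.30 and −0.16 within protein-coding counts and −0.27 for siRNA 1 outside mitochondrially encoded genes. Median FPKM, 22.9 with siRNA 1 and 26.9 with siRNA 2, against 30.5 in the control, was 26.1 and 29.6, against 33.3, with totals outside mitochondrially encoded genes. Per coding kilobase it was 304 and 373, against 412, and per kilobase of exon union 37.9 and 41.8, against 51.0.

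Of 187 alternatives for 17 named members, beside those that leave out a library, 171 kept direction and side of the threshold, 3 passed it (RPS2, RPSA and FAU with DESeq2) and 13 turned direction. The GC offset turned RPS23 (−0.053), RPS27A (−0.22), RPS6 (−0.19), RPS29 (−0.36) and RPS28 (0.54). RPS29, 0.03 in edgeR, was also −0.074 with total count scaling, −0.066 with limma on log2(FPKM + 1) and −0.073 with log2(FPKM + 0.1). Adding all copies turned RPS27 (0.12), RPSA (0.18) and RPS3A (0.22), and named copies turned RPSA (0.18) and RPS3A (0.20). The last cases follow from the counts of the copies; for the others the cause was not tested. Of 34 values with a siRNA library left out, 4 turned, each without siRNA 1: RPS3A (0.37), RPS28 (0.052), RPS12 (−0.0071) and RPS29 (−0.00080). No paired analysis was possible because the control has a single library.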
